A study of Mus musculus with 4 samples.

Results

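The genes described here are 39 effectors, targets and regulators of serum response factor (SRF), of its actin-sensing coactivators MRTF and of the Hippo effector YAP, with the contractile proteins that many of them encode. They were chosen by name, with earlier results of these data known. Each is represented by the probe set that carried that gene symbol alone and had the highest mean signal over the 4 arrays. All 39 were measured among the 18193 genes of the array with such a probe set, and all 39 passed the filter on dim probe sets that 13097 genes passed. The samples were primary mouse embryonic fibroblasts at passage 3, from 2 lines of wild type and 2 lines of RBP2-/- cells with 1 array each. RBP2 is the histone H3 lysine 4 demethylase encoded by Kdm5a, and the labels do not say which part of the gene is deleted. The lines of each genotype carry the numbers 1 and 2 in their titles, with no statement of what a number stands for. The members were therefore compared in 2 ways, by genotype and by line number.

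SRF binds a short AT-rich element, the CArG box, in front of its target genes. Monomeric actin holds the MRTF coactivators inactive, and when actin assembles into filaments they are freed to join SRF at genes for actins, calponins, transgelin and other parts of the contractile apparatus. The ternary complex factors of the Elk family join SRF at a different set, the immediate-early genes such as Fos and Egr1. YAP and its paralogue TAZ, encoded by Wwtr1, work through the TEAD factors, which bind CATTCC, and are held back by the Lats kinases. Fibroblasts that build stress fibres on a stiff surface express many of these targets strongly.

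The promoters below are shown because the members are compared below as SRF and TEAD targets. They are the 250 bases before the RefSeq start site (build GRCm38.p6), 5′ to 3′ on the strand of the gene. Every exact CArG box (CC, then 6 bases of A or T, then GG) and every CATTCC on either strand are in capitals. Elements that differ from this CArG pattern by a base, as in the Srf and Acta1 promoters, stay in lower case and are not counted. The first 6 genes hold a CArG box, and Ankrd1, a target shared by YAP and MRTF, holds CATTCC at 2 places.
Srf (chr17:46556163-46556412, minus strand): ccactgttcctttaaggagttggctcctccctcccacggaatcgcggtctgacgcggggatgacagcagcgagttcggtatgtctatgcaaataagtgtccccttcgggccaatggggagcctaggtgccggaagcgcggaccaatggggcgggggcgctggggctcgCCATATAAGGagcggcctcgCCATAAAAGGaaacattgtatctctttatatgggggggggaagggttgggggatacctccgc
Acta1 (chr8:123894776-123895025, minus strand): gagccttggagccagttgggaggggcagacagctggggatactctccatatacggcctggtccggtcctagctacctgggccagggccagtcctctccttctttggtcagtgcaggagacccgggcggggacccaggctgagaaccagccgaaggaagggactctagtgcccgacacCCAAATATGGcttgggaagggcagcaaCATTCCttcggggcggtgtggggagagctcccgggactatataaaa
Myl9 (chr2:156775214-156775463, plus strand): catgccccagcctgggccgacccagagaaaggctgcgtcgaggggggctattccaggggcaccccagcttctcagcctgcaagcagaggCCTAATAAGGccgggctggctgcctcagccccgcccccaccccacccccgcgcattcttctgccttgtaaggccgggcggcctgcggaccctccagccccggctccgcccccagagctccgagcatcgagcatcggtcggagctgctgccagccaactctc
Vcl (chr14:20929148-20929397, plus strand): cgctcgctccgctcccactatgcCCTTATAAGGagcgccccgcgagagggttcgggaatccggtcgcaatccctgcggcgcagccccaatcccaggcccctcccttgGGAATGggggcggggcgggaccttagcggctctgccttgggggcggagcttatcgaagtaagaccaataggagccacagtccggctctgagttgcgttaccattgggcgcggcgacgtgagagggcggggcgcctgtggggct
Fhl1 (chrX:56779433-56779682, plus strand): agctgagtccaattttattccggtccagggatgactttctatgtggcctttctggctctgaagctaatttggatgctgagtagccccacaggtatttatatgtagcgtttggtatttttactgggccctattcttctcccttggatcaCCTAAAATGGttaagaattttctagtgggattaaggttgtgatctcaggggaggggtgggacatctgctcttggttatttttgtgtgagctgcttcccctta
Cnn2 (chr10:79988350-79988599, plus strand): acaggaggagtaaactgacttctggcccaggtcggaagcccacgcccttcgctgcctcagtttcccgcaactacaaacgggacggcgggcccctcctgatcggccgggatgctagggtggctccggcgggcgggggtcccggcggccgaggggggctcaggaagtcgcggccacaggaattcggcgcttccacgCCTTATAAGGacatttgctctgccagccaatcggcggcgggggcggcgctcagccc
Ankrd1 (chr19:36119845-36120094, minus strand): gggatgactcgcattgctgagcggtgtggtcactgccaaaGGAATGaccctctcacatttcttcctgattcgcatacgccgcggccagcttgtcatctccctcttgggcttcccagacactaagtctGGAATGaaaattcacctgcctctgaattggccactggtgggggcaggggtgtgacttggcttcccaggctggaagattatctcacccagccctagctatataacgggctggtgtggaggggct

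The Srf promoter held CArG boxes starting 82 and 62 bases before the start site, and those of Acta1, Cnn2, Fhl1, Myl9 and Vcl held 1 each, starting 73, 56, 102, 161 and 227 bases before it. In the Acta1 promoter CATTCC on either strand began 46 bases before the start, in that of Vcl 143 bases, and in that of Ankrd1 123 and 210 bases. RefSeq promoters were matched for 31 of the 39 members, with 37 start sites. Of these 31 genes, 8 held a CArG box and 16 held CATTCC, the others with a CArG box being Fhl2 and Filip1l. Among all 32851 promoters of the same length 1.47% held a CArG box and 12.6% held CATTCC, against 24.3% and 45.9% of the 37 promoters of the members. Many members were picked as known SRF or TEAD targets, so this difference describes the choice. A match is a stretch of letters and not a measured binding site.

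The 4 arrays differed in overall brightness. The median deposited signal was 22.7 and 29.4 on the wild-type arrays of lines 1 and 2, and 21.5 and 43.7 on the RBP2-/- arrays, so both line 2 arrays were the brighter ones of their genotype. Arrays were brought to 1 distribution by quantile normalization, and values below are log2(signal + 9) after it unless they are called deposited. For the Actb control the 3' probe set was 1.02 and 1.10 times as bright as the 5' one on the line 1 arrays (wild type, then RBP2-/-) and 1.09 and 1.14 times on the line 2 arrays. For Gapdh the values were 0.658 and 0.674 on line 1 and 0.712 and 0.698 on line 2. Both ratios were thus higher in line 2 than in line 1 of each genotype, and their part in the line difference was not tested. Wild-type line 1 had the lowest mean correlation with the other arrays, 0.927 against 0.942 to 0.948. Xist was high on wild-type line 1 and RBP2-/- line 2, at 10.68 and 10.23, and low on the others, at 6.21 and 5.88, with the Y-linked Eif2s3y the other way round. The sexes of the lines thus follow neither genotype nor line number. Within each genotype, however, the 2 lines differed in sex by these genes, in reverse order between the genotypes. A line difference within 1 genotype is therefore also a difference between sexes. Kdm5a on its brightest probe set had 6.72 and 7.65 in wild type and 6.40 and 6.49 in RBP2-/- cells, a log2 difference of -0.74 (standard error 0.34) that did not pass the threshold. Of its 4 other kept probe sets 1 had -1.24 (standard error 0.41), and the others had 0.15, 0.24 and -0.25. Fibroblast collagens and vimentin were bright on every array. Of 11 skeletal muscle markers, 8 did not pass the filter on dim probe sets, among them Myog, Myf5 and Myh3, and of 6 cardiac markers 3 did not, Myh6, Myh7 and Myl7.

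By genotype, estimates for the contractile, SRF and YAP genes lay on both sides of 0. With limma, 0 of the 39 members passed an adjusted p of 0.05, against 0.00764% of all 13097 genes, and 1 was higher (Myh11, described next) and 0 were lower in RBP2-/- cells at an unadjusted p under 0.05, against 1.16% and 1.44% of all genes, or 2.6% in either direction. The median log2 difference over the members was 0.001, against -0.010 over all genes, with 20 estimates above 0 and 18 below, where 51.5% of all genes were below. In 4 members both RBP2-/- arrays lay above both wild-type arrays and in 3 members below, and 29.2% of all genes had such arrays without overlap. The median standard error was 0.22 for the members, and the differences ranged from -0.46 to 1.34. The p-values rest in part on the spread over 2 lines per genotype, which may share sources that the labels do not give. Of their 8.46 degrees of freedom 2 come from the arrays of a gene, and the rest from variance pooled over all kept probe sets. By line number the total was 8.36. An exact permutation test of a single gene could not go below 0.333.

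Myh11, the heavy chain of smooth muscle myosin, was the dimmest member and passed the filter only through the RBP2-/- arrays. Its mean over the 4 arrays was 4.77 against a floor of 4.76, with values of 4.47 and 3.74 in wild type and 5.76 and 5.13 in RBP2-/- cells. Its deposited signals were 10.4, 4.6, 33 and 38.8 on the wild-type and then the RBP2-/- arrays, partly below the added 9. A gene kept in this way had to be higher in RBP2-/- cells, so its difference is given as a description and not as a call. It was not kept with a pseudocount of 1, with the upper 40% of probe sets, or when either RBP2-/- array was left out, and the second Myh11 probe set was below the filter.

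Tpm2, the beta-tropomyosin that lies along actin filaments, had 12.06 and 11.45 in wild type and 11.21 and 11.39 in RBP2-/- cells. Both RBP2-/- arrays were lower, but the log2 difference of -0.46 with a standard error of 0.22 was -0.15 without wild-type line 1. Further kept Tpm2 probe sets had genotype differences of -0.32, -0.079 and -0.064. Tpm1, the alpha-tropomyosin, had 12.10, 11.68, 11.70 and 11.72 in the same order, so wild-type line 1 alone was high. For both tropomyosins the wild-type lines lay farther apart than the genotypes.

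Among the regulators, Tead1, a DNA-binding partner of YAP, had 10.17 and 9.71 in wild type and 9.75 and 9.54 in RBP2-/- cells. The genotypes overlapped, and the difference of -0.30 had a standard error of 0.22. Ajuba, a LIM protein that binds and inhibits Lats kinases, had 8.40 and 8.76 against 8.85 and 8.82, a difference of 0.26 with a standard error of 0.22. Amotl2, a member of the angiomotin family that binds YAP, had 9.93 and 9.74 against 10.10 and 9.94, a difference of 0.18 with a standard error of 0.19. In both of the latter genes the RBP2-/- arrays were the higher ones, by less than 1 standard error for Amotl2 and by little more for Ajuba.

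Flna, the filamin that crosslinks actin filaments, had 11.42 and 11.26 in wild type and 11.47 and 11.57 in RBP2-/- cells, a difference of 0.18 with a 95% interval from -0.20 to 0.56. Fhl2, a LIM-domain cofactor of SRF, had 9.84, 9.17, 9.53 and 8.88, so that the lines within a genotype lay farther apart than the genotypes. YAP itself (Yap1) had 10.02 and 9.90 against 9.78 and 9.81, and its paralogue Wwtr1 had 9.01 and 9.19 against 9.11 and 9.09. The genotype intervals of Yap1 and Wwtr1 ran from -0.59 to 0.25 and from -0.46 to 0.46. Neither interval shows that the genotypes were alike. The brightest probe set of Tgm2 had a genotype difference of 0.24 (standard error 0.42). Its 4 further kept probe sets had 0.41, 0.17, 0.83 and 0.92, the last with an unadjusted limma p of 0.0225.

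By line number the differences were larger than by genotype in 32 of the 39 members. This share was not counted over all genes. The median absolute difference was larger by line number over all genes too, at 0.24 against 0.19, and over the members at 0.33 against 0.13. The 3 actins, Cnn1, Tagln, Myl9, Fhl1, Fhl2, Ankrd1 and Ccn2 were among the members that were lower on both line 2 arrays than on both line 1 arrays. This order was found for 26 of the 39 members, against 22.1% of all genes and 27.2% of the brightest 3274 genes by mean signal, to which 35 members belonged. The opposite order was found for 1 member, Lats2, against 20% of all genes, and 12 members overlapped; arrays without overlap in either direction were found for 42.1% of all genes. At an unadjusted limma p under 0.05, 18 of 39 members, or 46.2%, were lower in lines numbered 2 and 0 were higher, against 4.78% of all genes lower and 5.09% higher (9.86% in all), and 8.89% lower among the brightest genes just named. The median log2 difference over the members was -0.33, against -0.014 over all genes, with 35 estimates below 0 against 51.7% of genes. As the list was chosen with earlier results of these data known, these counts describe the list and are no test of it. In this fit 0 members passed an adjusted p of 0.05 over all 27022 probe sets, of which 1 passed. The smallest adjusted p of a member was 0.0920, for Ankrd1.

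**Figure D1:**
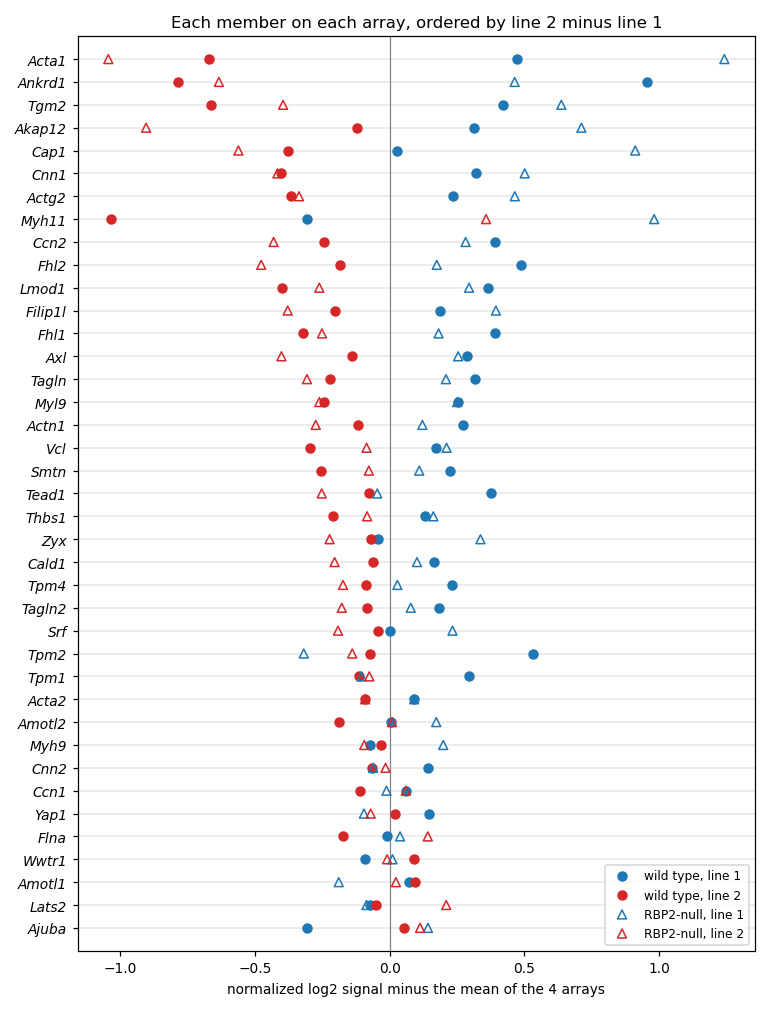
Normalized log2 signal of each of the 39 members on each array, as the difference from the mean of that gene over the 4 arrays (horizontal axis); circles are wild type, triangles RBP2-/-, blue line 1 and red line 2. In 26 members both red points lie left of both blue points, while circles and triangles are mixed.

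The comparison by line number leaves genotype in the residual spread. With genotype as a further term, which leaves 1 residual degree of freedom to each probe set before the pooling, 12 members passed an adjusted p of 0.05, all lower in lines numbered 2, against 0.993% of all genes lower and 2.2% in either direction. They were Acta1, Actg2, Cnn1, Tagln, Cap1, Fhl1, Fhl2, Akap12, Ankrd1, Ccn2, Tgm2 and Axl. In that fit the standard errors come mostly from variance pooled over all kept probe sets, and little from a gene's own spread between lines. Akap12, with line differences of -0.44 in wild type and -1.62 in RBP2-/- cells, had a standard error of 0.18. Myl9, with -0.50 and -0.51, had 0.15 and did not pass with the genotype term. Without that term, 6 members passed, all lower, when wild-type line 1 was left out, against 0.207% of genes, and 9 when RBP2-/- line 1 was left out, against 1.7%. Either setting leaves 1 line 1 array, so the spread comes from the line 2 arrays. When wild-type line 2 or RBP2-/- line 2 was left out, 0 members passed. At an unadjusted p 13 to 22 members were lower over these 4 settings, against 2.26% to 10.8% of genes. With 1 array against 2, line 2 lay wholly below line 1 for 27 to 31 members, against 32.9% to 42.5% of genes.

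**Figure D2:**
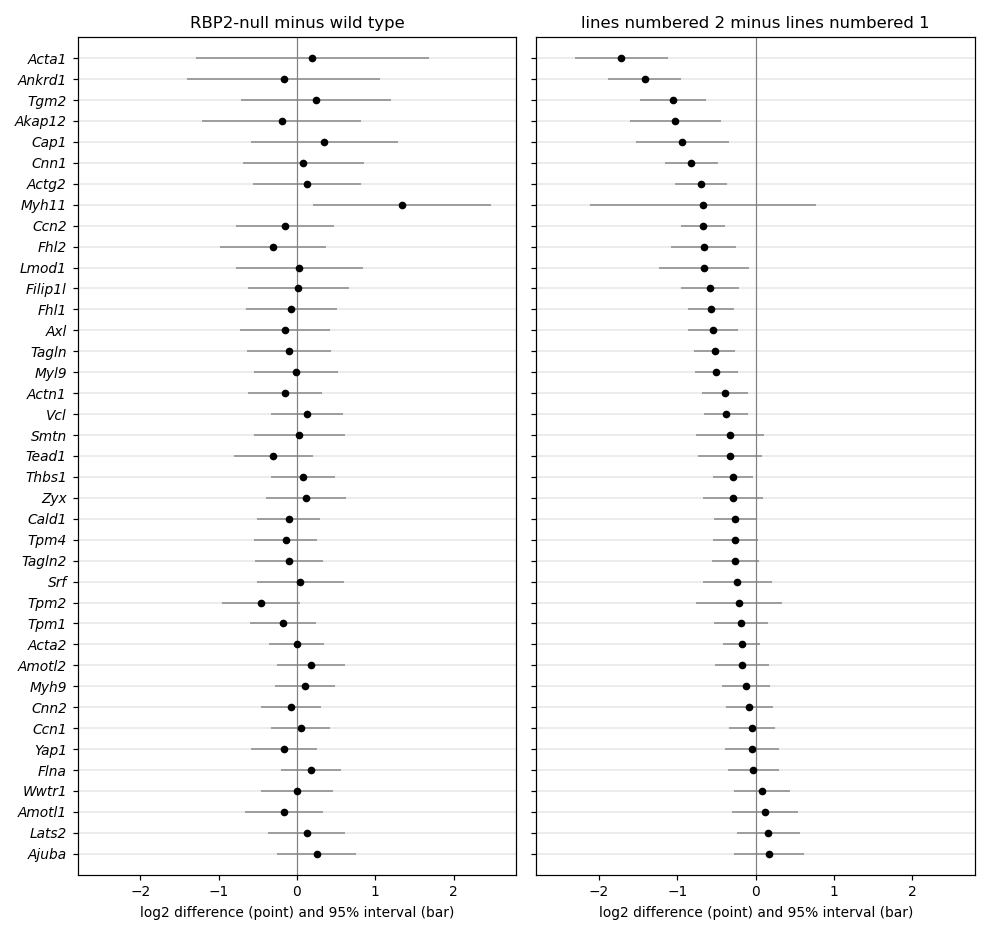
Log2 differences of the 39 members (points) with 95% intervals from limma (bars), RBP2-/- minus wild type on the left and lines numbered 2 minus lines numbered 1 on the right, in the same gene order. The genotype differences lie on both sides of 0 with a median of 0.001, and 35 of the 39 line differences lie below 0.

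The count without overlap depended on how the arrays were scaled. As deposited, both line 2 arrays lay below both line 1 arrays for 2 members, Acta1 and Ankrd1, against 0.741% of all genes. Without scaling, the members had a median difference of 0.30 where the median over all probe sets was 0.72, or -0.42 relative to that shift, and 0 were lower at an unadjusted p, as were 0.104% of all probe sets. When each array was instead centred on its median, the shift over the kept probe sets was 0.19. The members had -0.42 relative to it, 11 had line 2 arrays wholly below line 1 arrays, against 8.97% of genes, and 3 were lower at an unadjusted p, against 1.34% of all probe sets. Centring takes 1 constant from each array, so values relative to the shift are the same with and without it. In these values all 18 members that were lower after quantile normalization lay below the shift, as did 34 of the 39 members. The part that array brightness plays in the line difference was not tested.

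The difference between the lines was also taken within each genotype, where it rests on 1 array against 1 and has no test. The lines of a genotype also differed in sex by Xist and Eif2s3y, and the part of sex in these differences was not tested. Line 2 lay below line 1 in 34 of 39 members in wild type, with a median of -0.40, and in 31 of 39 in RBP2-/- cells, with a median of -0.31. In 28 members, or 71.8%, it was lower in both genotypes, against 29.6% of all genes and 34.1% of the brightest 3274, and in 2 members it was higher in both. Across the 39 members the wild-type and the RBP2-/- difference had a Pearson correlation of 0.62 and a Spearman correlation of 0.65, against 0.14 and 0.16 across all genes and 0.39 and 0.38 across the brightest 3274. These correlations are across genes measured on the same 4 arrays and not across independent replicates, and they share the normalization.

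**Figure D3:**
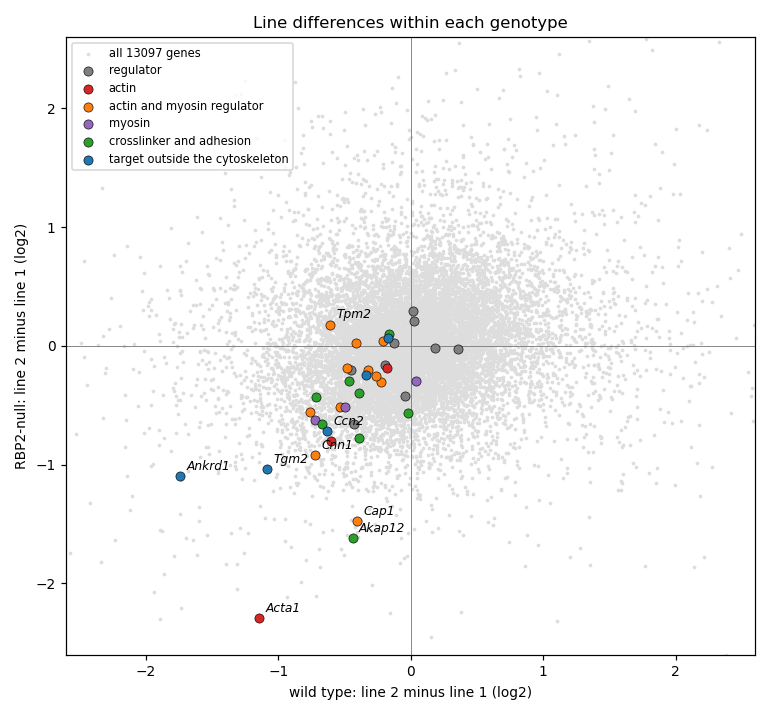
Line 2 minus line 1 in log2 units within wild type (horizontal axis) and within RBP2-/- cells (vertical axis), with the members coloured by role over all 13097 genes in grey, of which 28 lie outside the axes. Of the 39 members, 28 lie at the lower left, where line 2 is lower in both genotypes, with Acta1 and Ankrd1 farthest out.

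The 3 actins had a median line difference of -0.70, the largest of the role groups. Acta1, skeletal muscle alpha-actin and a classical SRF target, had 9.39 in wild-type line 1 and 8.25 in line 2, and 10.16 and 7.87 in RBP2-/- lines 1 and 2. Both line 2 arrays were lower, with a log2 difference of -1.72 (standard error 0.26; 95% interval -2.31 to -1.12), or 3.28-fold, and 0.115% of all genes had a lower difference. As deposited, the Acta1 signal was 390.5 and 303.6 in wild type, lines 1 and 2, and 961.3 and 356.3 in RBP2-/- cells. Its limma adjusted p was 0.118, or 1.05e-08 with genotype in the fit, where the standard error is mostly pooled over all kept probe sets. That small value does not measure the spread between lines, as the Acta1 line difference was -1.14 in wild type and -2.29 in RBP2-/- cells. Leaving out each array in turn gave differences from -2.11 to -1.31.

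Actg2, smooth muscle gamma-actin, had 10.35 and 9.75 in wild-type lines 1 and 2 and 10.58 and 9.78 in RBP2-/- lines 1 and 2. The groups did not overlap, and the log2 difference of -0.70 with a standard error of 0.15 corresponds to 1.63-fold. Acta2, the smooth muscle alpha-actin that marks myofibroblasts, had 13.25 on both line 1 arrays and 13.06 on both line 2 arrays, a difference of -0.18 with a standard error of 0.10. That probe set was the third brightest of the array in both line 1 samples and ranked 10 in both line 2 samples, so that quantile normalization gave equal values. A dimmer Acta2 probe set had 7.09 and 6.42 in wild-type lines 1 and 2 and 7.82 and 6.14 in the RBP2-/- lines, a log2 difference of -1.18 (standard error 0.30). On the third one the difference was -0.51 (standard error 0.35). The Acta2 probe sets thus had the same sign and sizes that differed widely. Actins are close paralogues, and the name of the brightest Acta2 probe set marks it as one that can bind other transcripts. The probe set names of Acta1 and Actg2 also carry endings that mark several possible transcripts.

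Proteins that sit on actin filaments followed in part. Cnn1, the calponin of smooth muscle, had 10.10 and 9.38 in wild-type lines 1 and 2 and 10.29 and 9.37 in RBP2-/- lines 1 and 2. The log2 difference was -0.82 with a standard error of 0.15, or 1.77-fold, and the 2 arrays of a line number differed by 0.13 (SD, line 1) and 0.009 (SD, line 2). Tagln, transgelin or SM22-alpha, had 12.64 and 12.10 in wild type and 12.53 and 12.01 in RBP2-/- cells, a difference of -0.53 with a standard error of 0.12. Both genes had line 2 arrays wholly below line 1 arrays.

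Cap1, a cyclase-associated protein that recycles actin monomers, had 10.28 and 9.88 in wild-type lines 1 and 2 and 11.17 and 9.69 in RBP2-/- lines 1 and 2. RBP2-/- line 1 was the high array, and the log2 difference of -0.94 was -0.49 without it. On a further Cap1 probe set it was -0.94 (standard error 0.23). Lmod1, leiomodin, which nucleates actin in smooth muscle, had a difference of -0.66 with a standard error of 0.25. Cnn2 and Tagln2, broadly expressed relatives of Cnn1 and Tagln, had -0.082 and -0.26, each with a standard error of 0.13, and the second kept Tagln2 probe set had 0.23. Cald1, Tpm4 and Smtn, encoding caldesmon, a tropomyosin and smoothelin, had differences of -0.27, -0.26 and -0.33, with arrays that did not overlap, and Tpm4 had -0.15 without wild-type line 1. Further kept Cald1 probe sets had -0.27, -0.033 and -0.65, and the arrays overlapped on the one at -0.033. Tpm1 and Tpm2 overlapped between line numbers. In all, 11 of the 11 genes of this group had estimates below 0, against 51.7% of all genes. At an unadjusted p 4, or 36.4%, were lower, against 4.78% of all genes.

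Among the myosins, Myl9, the regulatory light chain of smooth muscle and non-muscle myosin, had 11.57 and 11.07 in wild-type lines 1 and 2 and 11.56 and 11.05 in RBP2-/- lines 1 and 2. The lines of the same number differed by 0.003 (SD, line 1) and 0.012 (SD, line 2), and the line difference was -0.51 with a standard error of 0.12, or 1.42-fold. Its limma adjusted p was 0.259, or 0.0519 with genotype in the fit. Myh9, non-muscle myosin heavy chain IIA, had 12.06, 12.11, 12.34 and 12.04 on wild-type lines 1 and 2 and RBP2-/- lines 1 and 2. Its line numbers overlapped, with a difference of -0.12 and a 95% interval from -0.42 to 0.17. Of its 4 further probe sets 1 was lower at an unadjusted p, at -0.32, and the others were at -0.32, -0.27 and 0.20.

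Of the 8 crosslinkers, adhesion proteins and scaffolds, 8 had estimates below 0, against 51.7% of all genes. At an unadjusted p 6, or 75%, were lower, against 4.78% of all genes. Fhl1, a LIM-only protein of muscle and fibroblasts, had 12.21 and 11.49 in wild-type lines 1 and 2 and 11.998 and 11.56 in the RBP2-/- lines, a difference of -0.57 with a standard error of 0.13. Fhl2, whose values are given above, had -0.66 with a standard error of 0.18. Akap12, a scaffold for protein kinases A and C, had 10.51 and 10.07 in wild-type lines 1 and 2 and 10.90 and 9.29 in the RBP2-/- lines. The line 2 arrays of these 3 genes were the lower ones throughout, but the Akap12 difference of -1.03 was -0.65 without RBP2-/- line 2.

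Vcl, vinculin, which links integrins to actin, had 12.46 and 11.998 in wild-type lines 1 and 2 and 12.51 and 12.21 in the RBP2-/- lines, a difference of -0.38 with a standard error of 0.12. Actn1, the crosslinker alpha-actinin, and Filip1l had -0.39 and -0.58 with standard errors of 0.13 and 0.16. Both further Actn1 probe sets had similar values, -0.42 and -0.38. Zyx, zyxin, had -0.29 with a standard error of 0.17 and arrays that did not overlap, but -0.10 without RBP2-/- line 1. Flna had -0.030 with a 95% interval from -0.35 to 0.29, and was the 1 gene of this group whose line numbers overlapped.

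Of the 5 targets outside the cytoskeleton, 4, or 80%, were lower at an unadjusted p, against 4.78% of all genes. Ankrd1, an ankyrin repeat protein used as a readout of YAP, had 9.72 and 7.98 in wild-type lines 1 and 2 and 9.23 and 8.13 in RBP2-/- lines 1 and 2. The line numbers were far apart, with a log2 difference of -1.42 (standard error 0.20; 95% interval -1.88 to -0.95), or 2.67-fold. On the second Ankrd1 probe set it was -1.53 (standard error 0.21). As deposited, the signal was 496.6 and 250.6 in wild type and 487.3 and 425.5 in RBP2-/- cells.

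Tgm2, tissue transglutaminase, which crosslinks proteins inside and outside the cell, had 9.08 and 7.99 in wild-type lines 1 and 2 and 9.29 and 8.26 in RBP2-/- lines 1 and 2, a difference of -1.06 with a standard error of 0.18, or 2.08-fold. Its 4 further kept probe sets had -1.40, -1.14, -0.82 and -0.61. Ccn2, connective tissue growth factor, had 12.80 and 12.16 in wild type and 12.69 and 11.97 in RBP2-/- cells, a difference of -0.67 with a standard error of 0.12. On the brightest probe sets of Tgm2 and Ccn2 the line numbers did not overlap, while 2 of the further Tgm2 probe sets overlapped. Thbs1, thrombospondin-1, had -0.29 with a standard error of 0.11, and -0.28 on its other probe set. Ccn1, the close relative of Ccn2 and also a YAP target, had -0.050 with a 95% interval from -0.34 to 0.24, and its 3 further probe sets had -0.010, -0.16 and -0.19. The difference between Ccn1 and Ccn2 was not tested.

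Of the 9 regulators, 5 had line estimates below 0 and 4 above, with a median of -0.049. In 3, or 33.3%, line 2 arrays lay wholly below line 1 arrays, against 22.1% of all genes. Srf had 8.02 and 7.98 in wild-type lines 1 and 2 and 8.25 and 7.83 in RBP2-/- lines 1 and 2. Its difference of -0.23 had a standard error of 0.19, and another Srf probe set had 0.097. Yap1, Wwtr1 and Amotl1 had -0.049, 0.082 and 0.12 with standard errors of 0.15, 0.16 and 0.18. Lats2, a kinase that inactivates YAP and is itself a YAP target, had 8.61 and 8.63 in wild-type lines 1 and 2 and 8.60 and 8.89 in RBP2-/- lines 1 and 2, a difference of 0.16, while its dimmer probe sets had -0.62, -0.44, -0.080 and 0.32, so that the probe sets of Lats2 differ in sign. Tead1 had -0.33 with a standard error of 0.18 and arrays that did not overlap, and -0.12 without wild-type line 1. Ajuba and Amotl2 had 0.17 and -0.18. The receptor tyrosine kinase Axl was placed in this group, though it is a YAP target. Of the 9 genes it was the 1 that was lower at an unadjusted p, or 11.1%, against 4.78% of all genes. Axl had 11.24 and 10.82 in wild-type lines 1 and 2 and 11.21 and 10.55 in RBP2-/- lines 1 and 2, a difference of -0.54 with a standard error of 0.14. None of these intervals shows that a regulator was equal in the lines.

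Further probe sets of the members had estimates of both signs, with more below 0. Of 42 further kept probe sets, covering 22 members, 30 had estimates below 0 by line number and 12 above. At an unadjusted p 12 were lower, against 4.28% of all kept probe sets, and 0 higher. Of the 12 such probe sets of members that were themselves lower, 11 lay below 0 and 1, a dim Fhl1 probe set at 0.19, above. When probe sets whose name endings mark several possible transcripts were left out, 13 of the 18 lower members were still measured. Acta1, Actg2, Tgm2, Akap12 and Fhl2 had only probe sets with such endings. The 8 members with an exact CArG box in the window printed or searched had a median line difference of -0.54, with 6 of the 8 lower at an unadjusted p. The 23 other members with a promoter, some of which hold inexact elements, had -0.21, with 6 of the 23 lower. Of all genes 4.78% were lower. For CATTCC the medians were -0.23 with it and -0.29 without it. These are descriptions of a chosen list and carry no test.

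The 35 members among the brightest 3274 genes had a median line difference of -0.29, where those 3274 genes had -0.025. In the 3 dimmer classes of about the same size all genes had medians of -0.011, 0.001 and -0.016. The medians over all genes thus lay within 0.025 of 0 at every level of signal. Quantile normalization by itself draws such medians toward 0, so they are no separate check.

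**Figure D4:**
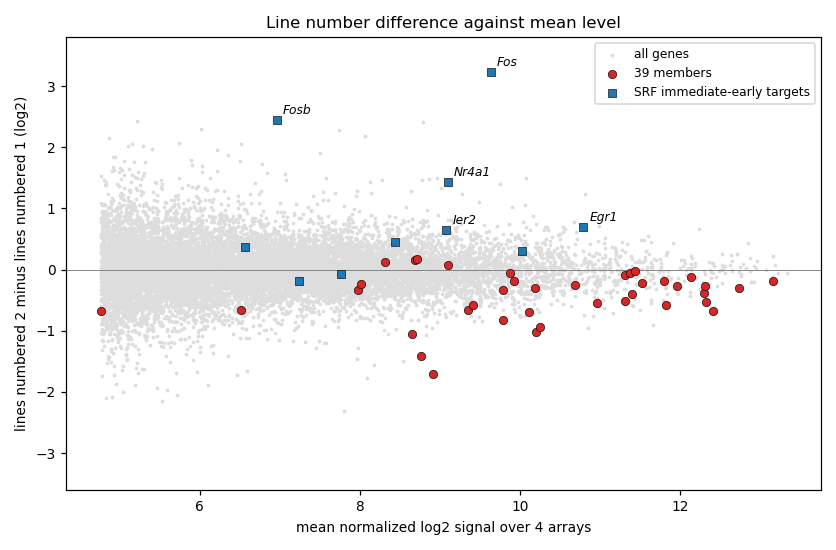
Lines numbered 2 minus lines numbered 1 (log2, vertical axis) against the mean normalized log2 signal of the probe set (horizontal axis), for all genes (grey), the 39 members (red circles) and 10 immediate-early targets of SRF (blue squares). The members lie mostly below 0 over their whole range of signal, and Fos, at 3.24, is the highest point plotted.

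Other genes of these pathways were described by the same fit. These further lists were also chosen with earlier results of these data known, so their counts are descriptions. Other actin, myosin and adhesion genes numbered 28 of 29 measured, with a median line difference of -0.25. Of these 7, or 25%, were lower and 0 higher at an unadjusted p, against 4.78% and 5.09% of all genes. In 17, or 60.7%, line 2 arrays lay wholly below line 1 arrays, against 22.1% of all genes, and 0 passed the adjusted threshold. Tes, testin, had -0.77 (standard error 0.16), and the integrins Itga5 and Itgb1 had -0.67 and -0.48 with standard errors of 0.17 and 0.13. Relative to the shift, the median was -0.20 with arrays centred or unscaled. The cytoplasmic actins Actb and Actg1 had -0.12 and -0.049 with standard errors of 0.12 and 0.11. By genotype the median of this list was 0 and 0 members reached an unadjusted p under 0.05.

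In the Hippo kinases and TEAD factors list, 16 of 17 genes were measured. At an unadjusted p 2 of them, or 12.5%, were lower, against 4.78% of all genes. They were Vgll3 and Mob1a, at -0.60 and -0.44. The median line difference was -0.081. This median turned to 0.040 relative to the shift with arrays centred or unscaled. Vgll4, a TEAD cofactor that competes with YAP, had -0.64 with a standard error of 0.28. In the list of 15 other YAP targets the median was -0.13, and -0.024 relative to the shift with arrays centred or unscaled. At an unadjusted p 3, or 20%, were lower and 1 higher, against 4.78% and 5.09% of all genes. Tgfb2, F3, the coagulation factor receptor, and Asap1 had -0.63, -0.97 and -0.53. Ccdc80, a matrix protein, was the higher one at 0.39. In 5 of the 15 line 2 arrays lay wholly above line 1 arrays and in 6 wholly below, where 20% and 22.1% of all genes did. Both lists had 0 genes past the adjusted threshold, and 8 of the 15 YAP targets had estimates below 0.

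The immediate-early targets of SRF lay on the other side. Of the 10 genes 6 were higher in lines numbered 2 at an unadjusted p and 0 lower, against 5.09% and 4.78% of all genes. The median line difference was 0.54, and 1 gene passed the adjusted threshold, against 0.00764% of all genes. Relative to the shift, the median was 0.64 with arrays centred or unscaled. Fos, a subunit of the AP-1 transcription factor, had 7.99 and 11.02 in wild-type lines 1 and 2 and 8.04 and 11.49 in RBP2-/- lines 1 and 2. Fos rose by 3.24 on the log2 scale in lines numbered 2, with a standard error of 0.18 and a limma adjusted p of 0.00174, on the 1 probe set of 27022 that passed. Fosb and Nr4a1 had 2.44 and 1.44 with standard errors of 0.32 and 0.16. In both genotypes the line with the higher Fos was the one with the lower Acta1, Ankrd1, Tgm2 and Cnn1, and a relation between them was not tested.

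**Figure D5:**
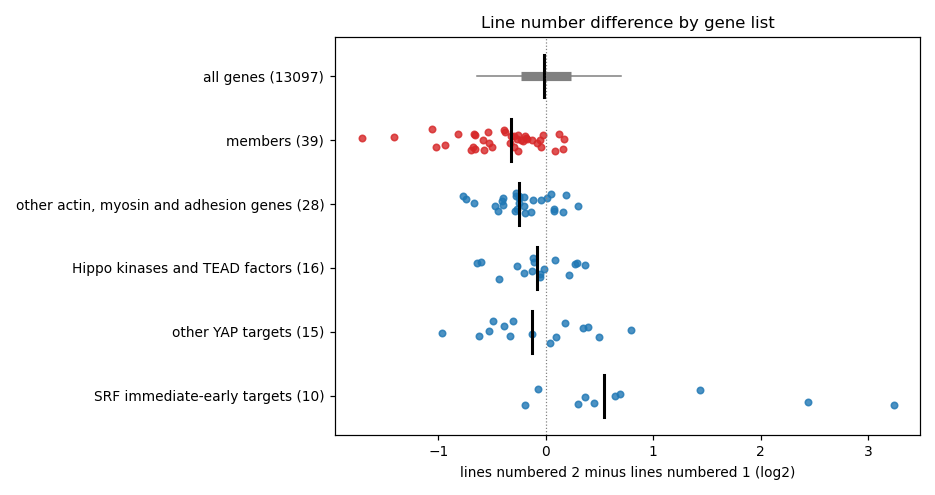
Lines numbered 2 minus lines numbered 1 (log2) for the members and 4 further lists, 1 point per gene with the number of genes in brackets and the median as a black bar; for all 13097 genes the thin line runs from the 5th to the 95th percentile and the thick one between the quartiles. The medians were -0.33 for the members, -0.25 for other actin, myosin and adhesion genes and 0.54 for the immediate-early targets.

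Markers of other cells gave the following values beside the line difference. For these counts, 4.78% of all genes were lower and 5.09% higher at an unadjusted p. Line 2 arrays lay wholly below line 1 arrays for 22.1% of all genes and wholly above for 20%. Of 10 fibroblast markers 4 were higher in lines numbered 2 at an unadjusted p and 0 lower. Pdgfra, a receptor of mesenchymal cells, had 5.72 and 8.93 in wild-type lines 1 and 2 and 7.47 and 8.84 in RBP2-/- lines 1 and 2, and the small proteoglycan Lum, Col3a1 and Pdgfrb had differences of 1.73, 0.67 and 0.43. Of the 8 kept smooth muscle genes that are no members, 1 was lower at an unadjusted p, the channel subunit Kcnmb1 at -1.24, and their median was 0.024. Des and Myocd had 0.21 and 0.30, with standard errors of 0.30 and 0.48, and Myocd was close to the filter floor, with deposited signals of 7.2 to 34.5. Of the 8 genes, 4 had estimates above 0 and 4 below, where 51.7% of all genes were below. The summed normalized signal of the 9 measured genes of this list was 754.5 and 737.2 on the line 1 arrays and 655.2 and 730.9 on the line 2 arrays. That of 11 skeletal muscle markers was 273 and 286.6 against 212 and 243.8. The 5 kept leukocyte markers had a median line difference of -0.33, with 4 below 0 and 3 with line 2 arrays wholly below line 1 arrays. The 4 kept neural markers had -0.26, with 3 below 0 and 2 wholly lower. The 3 kept endothelial and 5 kept epithelial markers had medians of 0.065 and 0.001. In these 4 lists 0 genes reached an unadjusted p under 0.05. The summed signal was 426.5 and 258.5 on the line 1 arrays and 326.8 and 298.2 on the line 2 arrays for leukocytes, and 813 and 691.7 against 640.7 and 579.5 for the neural list. Of the 3 kept cardiac markers, Nppa, a natriuretic peptide, was lower at an unadjusted p, at -1.29 (standard error 0.55), and their median was -0.058. The deposited Nppa signals were 32.5 and 3.1 in wild-type lines 1 and 2 and 28.2 and 39.8 in the RBP2-/- lines. Its difference thus rests mainly on wild-type line 2, which lay below the added 9. In these cultures a smaller share of contractile cells and less of these transcripts per cell cannot be told apart, and the part of other cell types was not tested.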

How the data were processed

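Total RNA of the 4 lines was labelled with biotin for Affymetrix arrays, per the labels' protocols. The deposited values are 1 linear intensity per probe set and array. The labels do not say how probes were summarised, and the deposited intensities were not at a common level, with trimmed means that differed by up to 2.46-fold. Of 45101 probe sets 64 controls were left out. Arrays were quantile normalized, 9 was added (the 25th percentile of all values), and the log2 of the deposited signals so treated was used, which understates changes of dim genes. The upper 60% of probe sets by mean, 27022, were tested with limma 3.58.1 in R 4.3.3 (lmFit and eBayes with a trend, two-sided, Benjamini-Hochberg over all of them, threshold 0.05), once by genotype and once by line number. The fit was tested on simulated data. Gene names came from the platform annotation, updated through RefSeq: 34945 probe sets had 1 symbol, 932 several and 9160 none.

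The members and lists were chosen with earlier results of these data known. Values on every array are given for 5 regulators, the 8 members with the smallest p by genotype and the 12 by line number, and up to 3 genes are named from each further list. Actb, Actg1, Pdgfrb, Ccdc80, Des and Myocd, and the dimmer probe sets described, were named after their values were seen. Same-numbered lines share a number and no stated origin. Other pseudocounts, filters, scalings, variance models, probe set choices, further terms and leaving out each array were tried. A further list is not reported here.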

Additional observations from a re-analysis of the deposited data

How the results depend on the processing

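The comparison by genotype gave 0 members past the threshold under every alternative run, and its median over the members ran from -0.242 to 0.182 when 1 array was left out. Its count higher at an unadjusted p was 1 in the main fit, against 1.16% of all genes, and it varied over the settings. With the replicate number as a block, 0 members passed by genotype, while 49 probe sets passed in place of 1. The deviations of same-numbered lines had a correlation of 0.113 over 27022 probe sets, and with 2 lines a genotype the numbers are not taken as pairs. By line number, 12 members passed the threshold with genotype in the fit, 5 with sex as a further term, and 0 to 9 when 1 array was left out. The median over the members, relative to all probe sets, was -0.421 with median-centred arrays and, by construction the same, with no scaling, and -0.389 to -0.310 when 1 array was left out. The count lower at an unadjusted p, added after seeing the data, was 3 with median-centred arrays and 0 with no scaling, and 12 with one prior variance. Of all probe sets 1.34%, 0.104% and 3.51% were lower in these settings. The count without overlap, also added after seeing the data, was 11 with median-centred arrays and 2 with no scaling. The shares of all genes were 8.97% and 0.741%. Over all probe sets, 1 passed by line number, against 11 with a pseudocount of 32, 20 with the upper 40% kept, 17 with centred arrays, 630 with no scaling, 580 with genotype in the fit, 114 with sex added and 1 to 1305 when 1 array was left out. The causes were not tested. With 4 arrays, their number limits the precision, and Myh11, close to background, is the least certain member.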
